A study of Mus musculus with 20 samples.

Results

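Myb and 7 genes of the Myc network were followed through the ATAC-seq peak lists of ER-Hoxa9-Lys-GFP cells, a mouse line of C57BL/6 origin. The 8 genes were Myb, Myc, Mycn, Mycl, Max, Mxd1, Mxi1 and Mxd4, chosen by name. Every peak whose deposited nearest gene was 1 of them was counted as theirs. They made up 8 of the 19738 genes with a peak in any list, and they held 366 of the 504887 peaks. These 366 peaks fell into 70 of the 88351 regions obtained when overlapping peaks of different lists were joined.

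The labelled groups were cells cultured without E2 (estradiol) for 4, 8, 12, 24, 36, 48, 72, 96 and 120 h, and cells kept with E2 (0 h), with 2 samples each and 20 in all. Every group carries the same ER-Hoxa9 fusion, which by common knowledge of such fusions is active only while the ligand is present, and the same Lys-GFP reporter. The sources used here do not say if the line is 1 clone. ATAC-seq marks open DNA by the cuts of the Tn5 transposase. There was 1 peak list per time, shared by both samples of that time, so no spread between replicates exists and no test or p-value is given. Read depth is unknown. The lists held 55261, 54717, 55176, 57666, 62559, 59683, 59562, 46837, 29806 and 23620 peaks at 0, 4, 8, 12, 24, 36, 48, 72, 96 and 120 h. A lower peak count of a gene at 96 or 120 h cannot be told apart from the shorter lists of those times. A region absent from a list is one where no peak was called, not one shown to be closed, and in a bulk culture fewer open cells and less opening per cell cannot be told apart. The myeloid markers Ptprc, Spi1, Mpo, Kit, Csf3r and Csf2rb had a promoter peak at 0 h, while Cebpa and Elane had none there (6 of 8 myeloid markers in all). Of the other lineages, 1 of 3 B cell markers (Ebf1), 0 of 3 T cell markers, 1 of 3 erythroid markers (Epor) and 1 of 4 markers of other tissues (Col1a1) had one.

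Myb is a DNA-binding activator of blood progenitors, and its level is known to fall as myeloid cells mature. Myc, N-Myc and L-Myc bind DNA as partners of Max, usually at E-boxes, and switch on genes of growth and division. Mxd1, Mxi1 and Mxd4 encode repressors that compete with Myc for Max, and Mxd1 is known to rise when myeloid cells mature.

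Promoter sequences of 5 of the genes are shown first, because the largest contrasts in promoter peaks below lie among them. Myb and Mycn are shown as promoters whose peak shrank or was no longer listed. Max, Mxd1 and Mxd4 are shown as promoters listed at every time. Each is the RefSeq window of assembly GRCm38.p6 (the sequence of mm10) that runs from 250 bases before the TSS (transcription start site) to 50 bases from it on, read 5′ to 3′ on the gene's strand. The table held 9 windows for 7 of the 8 genes, and Myc had no entry. In Myb (chr10:21160935-21161234, minus strand), capitals mark the E2F core, whose first base lies at -9 from the TSS. In Mycn (chr12:12941787-12942086, minus strand) and Mxd1 (chr6:86669110-86669409, minus strand), they mark Sp1 boxes on either strand. In Max (chr12:76962199-76962498, minus strand) and Mxd4 (chr5:34187661-34187960, minus strand), they mark the letters of an E-box, at -3 and -219. Binding to these sites was not measured.
Myb: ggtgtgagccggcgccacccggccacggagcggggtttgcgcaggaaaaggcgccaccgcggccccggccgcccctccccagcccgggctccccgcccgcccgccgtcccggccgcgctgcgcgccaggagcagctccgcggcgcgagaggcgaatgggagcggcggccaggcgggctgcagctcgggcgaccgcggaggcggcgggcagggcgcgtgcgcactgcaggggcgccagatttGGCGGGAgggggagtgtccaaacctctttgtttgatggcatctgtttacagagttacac
Mycn: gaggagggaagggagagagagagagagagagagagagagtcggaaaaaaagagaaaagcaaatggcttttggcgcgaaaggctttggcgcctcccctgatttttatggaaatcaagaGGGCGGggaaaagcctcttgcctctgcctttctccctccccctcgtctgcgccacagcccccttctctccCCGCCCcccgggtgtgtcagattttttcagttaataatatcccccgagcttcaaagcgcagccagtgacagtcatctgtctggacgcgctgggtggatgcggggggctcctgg
Max: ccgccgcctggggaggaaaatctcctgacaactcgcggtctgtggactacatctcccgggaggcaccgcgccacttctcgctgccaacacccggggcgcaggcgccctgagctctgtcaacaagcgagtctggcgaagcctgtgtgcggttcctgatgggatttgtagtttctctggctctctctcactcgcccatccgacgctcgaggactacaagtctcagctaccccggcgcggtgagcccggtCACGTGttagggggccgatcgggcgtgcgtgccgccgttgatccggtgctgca
Mxd1: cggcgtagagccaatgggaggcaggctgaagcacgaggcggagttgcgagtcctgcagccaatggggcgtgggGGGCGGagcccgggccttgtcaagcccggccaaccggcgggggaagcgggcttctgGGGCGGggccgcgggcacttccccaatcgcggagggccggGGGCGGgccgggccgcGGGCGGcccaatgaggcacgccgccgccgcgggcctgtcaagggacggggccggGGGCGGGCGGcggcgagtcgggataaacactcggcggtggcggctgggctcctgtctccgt
Mxd4: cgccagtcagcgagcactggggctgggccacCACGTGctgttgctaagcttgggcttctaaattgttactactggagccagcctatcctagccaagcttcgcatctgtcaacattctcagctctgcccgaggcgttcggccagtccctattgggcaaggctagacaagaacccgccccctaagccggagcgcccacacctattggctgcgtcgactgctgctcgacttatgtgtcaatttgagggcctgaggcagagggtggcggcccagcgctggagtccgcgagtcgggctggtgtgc

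Motif letters were searched on both strands of all 9 windows and of all 32851 windows in the table. The E-box, spelled CACGTG, was found once each in the Max and Mxd4 windows and in 7.15% of all windows. The E2F core, GGCGGGA, occurred in the Myb and Mycl windows and in the overlapping downstream pair of Mxi1 windows, against 11.3% of all windows. The Sp1 box, whose letters GGGCGG can overlap with the E2F core, was in 35.7% of all windows and occurred 6 times in that of Mxd1, 4 times in each of the overlapping downstream Mxi1 windows, 3 times in that of Myb and 2 times in that of Mycn. Mycl, Mxd4 and the upstream Mxi1 window held 1 each, and Max held 0. The Hox core with its Pbx or Meis partner, TGATTTA, was in 0 of the 9 windows and in 2.97% of all. The Myb core, AACGG or AACTG, occurred in the Mycl, Mycn and Max windows and in 1 downstream Mxi1 window, against 55.1% of all. It was absent from the Myb window. The ETS core, AGGAAG, was in 0 of the 9 windows and in 35.4% of all. The TATA box, TATAAA, was in the Mycl window only, against 13.6% of all. A match of letters is a description only.

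All 8 genes were listed with fewer peaks at 120 h than at 0 h, as were 65.5% of the genes with a peak in any list and 88.8% of the genes with at least 2 peaks at 0 h. Together they had 16 peaks at 120 h, against 44 at 0 h. Over the course they had 44, 34, 42, 38, 45, 48, 41, 39, 19 and 16 peaks from 0 to 120 h. The low counts were those of the 2 last lists, and up to 72 h the number stayed between 34 and 48. As a share of each list they held 0.0677% of the peaks at 120 h and 0.0796% at 0 h. When every list was reduced to as many of its widest peaks as the shortest list holds, the direction turned round, with 16 peaks at 120 h and 14 at 0 h. Of the 44 peaks of 0 h, 13 (29.5%, exact binomial 95% interval 16.8 to 45.2, counting error only) overlapped a peak at 120 h, against 32.6% of all 0 h peaks.

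**Figure D1:**
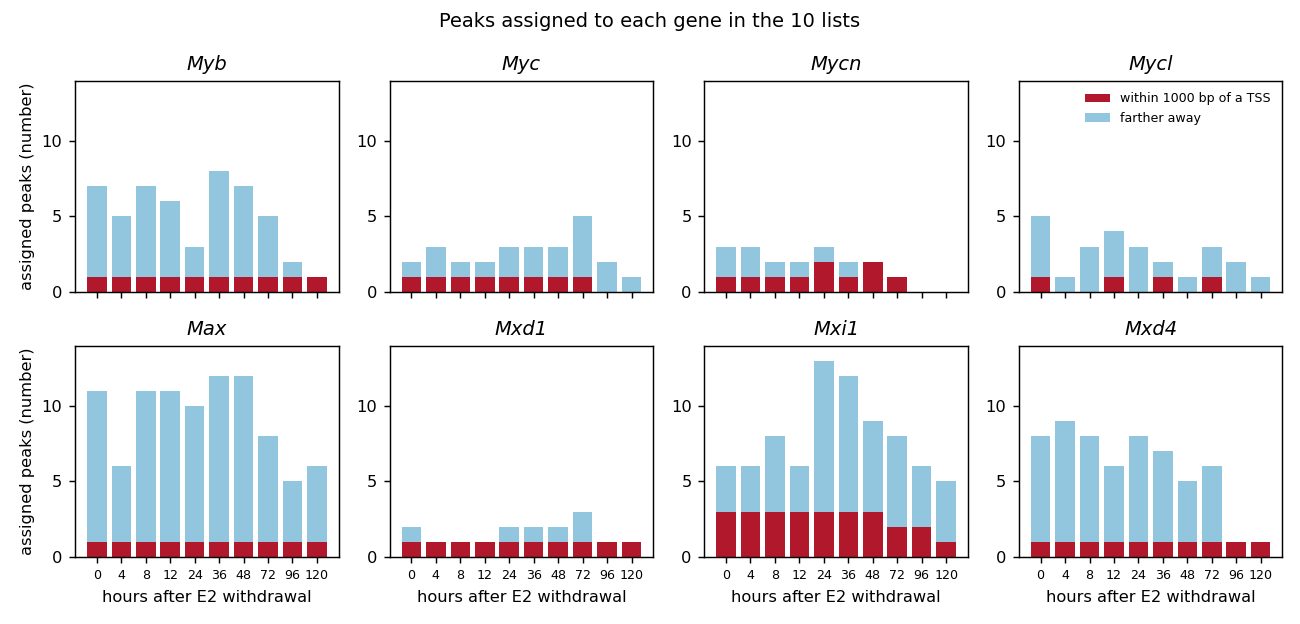
Number of peaks assigned to each of the 8 genes (y axis) in the list of each time after E2 withdrawal (x axis, hours), with peaks within 1000 bp of a TSS in red and peaks farther away in blue. Myb, Mycn and Mxd4 have their lowest bars at 96 and 120 h, while Mxi1 reaches 13 peaks at 24 h.

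Promoter peaks were followed next. Within 1000 bp of a TSS, 5 of the 8 genes had a peak at 120 h (Myb, Max, Mxd1, Mxi1 and Mxd4), against 8 of 8 at 0 h. Of all genes whose promoter was listed at 0 h, 77.2% still had a promoter peak at 120 h and 81.2% at 96 h. The genes without one at 96 and at 120 h were the 3 Myc family genes, Myc, Mycn and Mycl. Of these, Mycl already lacked one at 4, 8, 24 and 48 h. Of the members' promoter peaks of 0 h, 5 of 10 (50%, interval 18.7 to 81.3) were overlapped at 120 h, against 75% of all promoter peaks of 0 h. The 10 include 2 peaks of 1 promoter region of Mxi1 that was absent at 120 h, which the interval counts as independent. For distal peaks the counts were 8 of 34 (23.5%, interval 10.7 to 41.2) and 22.5%. The interval for the promoters includes the share over all genes, and no difference between the Myc family and the other genes was tested.

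Myb itself, on chromosome 10, had 7, 5, 7, 6, 3, 8, 7, 5, 2 and 1 peaks from 0 to 120 h. The single peak at 120 h was its promoter, and all distal regions of the gene were absent from that list. Its 11 regions comprised the promoter, 8 regions in introns or exons of Myb and 2 intergenic ones. The promoter region (chr10:21160571-21161845) was present in all 10 lists. It was 1275, 1209, 1124, 1198, 1222, 1241, 1224, 1123, 832 and 414 bp wide from 0 to 120 h. The width thus changed little up to 72 h, and the 2 last lists held the 2 narrowest peaks. The width at 120 h was 0.325 times that at 0 h. Of the 5276 promoter regions present in all lists, 8 (0.152%) had a ratio as low or lower; the median ratio was 0.952, and 63.3% were narrower at 120 h. At 96 h the ratio was 0.653, which 3.34% of those promoters reached or undercut. Of the 300 bases of the Myb window printed above, 205 lay inside the peak at 120 h and all 300 at each earlier time, 0 h included. Peak width is what the authors' peak caller drew and is not a measure of signal.

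Within the body of Myb, the region in intron 3 (chr10:21153404-21154161, 7243 bp from the TSS) lasted longest. It was 643, 668, 656, 646, 602, 652, 475, 675 and 520 bp wide from 0 to 96 h and was absent at 120 h. Both Myb regions that were present at 0, 4 and 8 h and absent at 72, 96 and 120 h, called lost below, were intronic; 12.5% of all regions were lost. The intron 8 region (chr10:21146179-21146776) was 514, 492 and 512 bp wide at 0, 4 and 8 h, was absent at 12 and 24 h, and was listed again at 36 and 48 h with 560 and 483 bp. The intron 5 region (chr10:21151427-21151694) was 268, 252, 246 and 235 bp wide from 0 to 12 h and 212 bp at 36 h, and was in no other list. An intron 1 region (chr10:21158153-21158595) was listed up to 72 h except at 24 h.
Myb had only 3 peaks at 24 h, the lowest number before 96 h. Of the 5 Myb regions listed at both 12 and 36 h, 2 were absent between them at 24 h, against 4 of 32 for the 8 genes and 6.88% of all such regions. The 24 h list held 62559 peaks, the most of the 10 lists, and the part of list length or depth in these values was not tested. A region in exon 10 and another in intron 8 were listed at 36 and 48 h only, the first with 383 and 280 bp and the second with 231 and 221 bp.

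**Figure D2:**
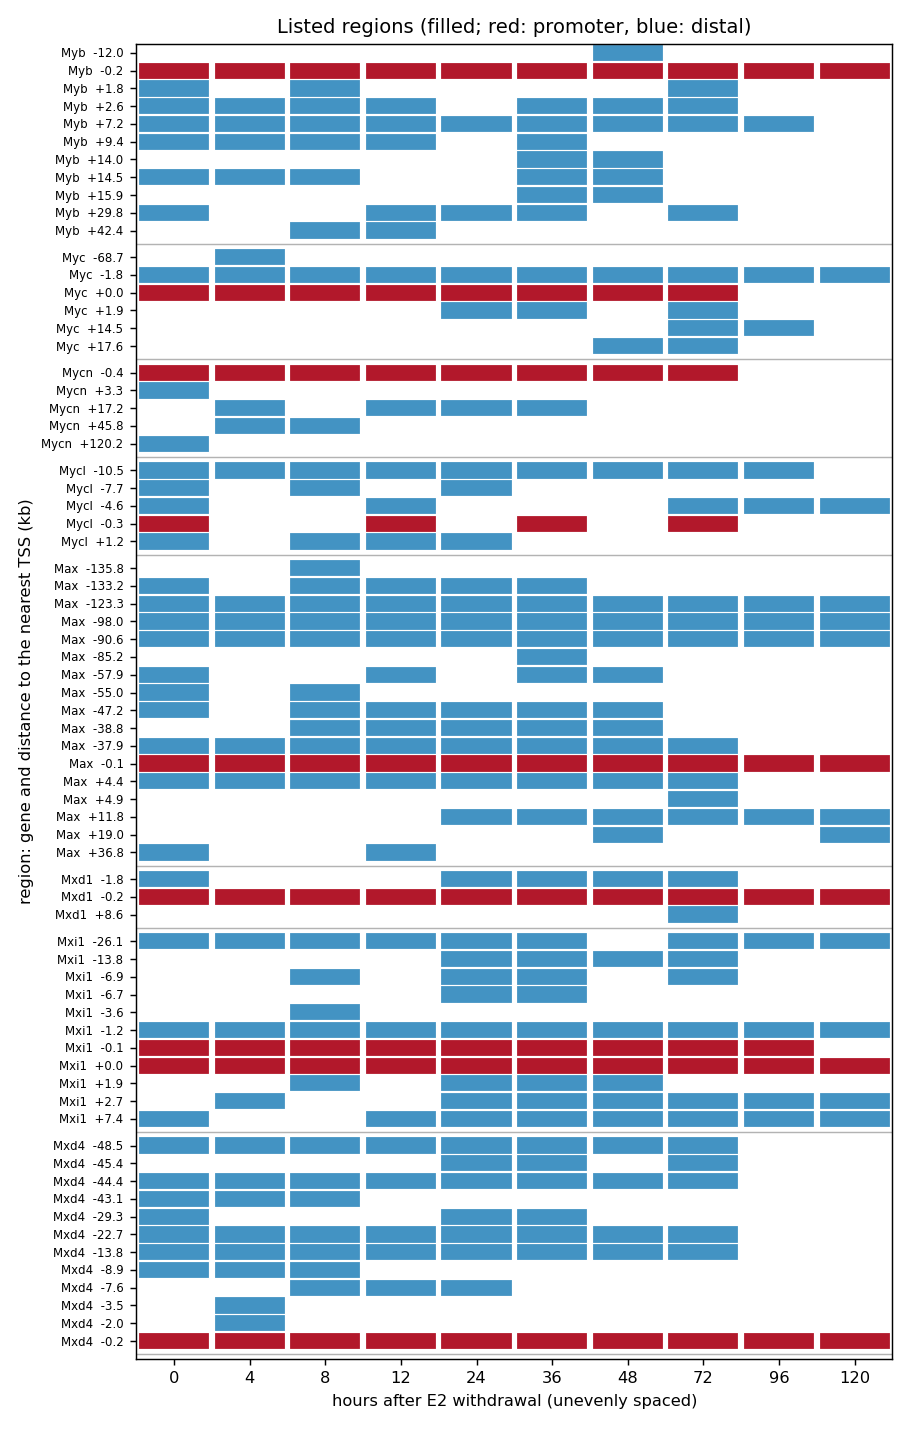
Presence of each of the 70 regions (y axis, named by gene and signed distance from the nearest TSS in kb) in the 10 lists (x axis, hours after E2 withdrawal), with promoter regions in red and distal regions in blue. The Myc, Mycn and Mycl promoters are empty at 96 and 120 h, and that of Mycl also at 4, 8, 24 and 48 h. The Myb, Max, Mxd1 and Mxd4 promoters are filled throughout.

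Upstream of Myb, toward Hbs1l, lies a stretch known for enhancers of Myb, and its peaks are assigned to Gm33619 and Hbs1l. From the Myb TSS to 200 kb upstream, the lists held 10, 7, 9, 9, 9, 9, 10, 5, 2 and 2 peaks from 0 to 120 h, in 12 regions. Without those assigned to Myb, there were 9, 6, 8, 8, 8, 8, 8, 4, 1 and 1. The remaining peak at 96 and 120 h was the promoter of Hbs1l (chr10:21295727-21296662), 135 kb upstream, which was in all 10 lists, with 767 bp at 120 h against 893 bp at 0 h. Peaks assigned to Gm33619, a predicted gene with a noncoding transcript, numbered 6, 4, 6, 5, 5, 5, 5, 2, 0 and 0. All intergenic regions of the window were absent at 96 and 120 h. Of all distal peaks of 0 h, 30.6% were overlapped at 96 h and 22.5% at 120 h, so most distal peaks of any gene were unlisted then. Of the 12 regions 3 were lost (12.5% of all regions in the lists were), at 28.3, 46.5 and 67.7 kb upstream of the Myb TSS. The region at 67.7 kb (chr10:21228451-21229000) was 543, 543, 486, 498, 504, 482 and 479 bp wide from 0 to 48 h and then absent. The Gm33619 promoter region at 26.0 kb (chr10:21186651-21187284) was listed at every time up to 72 h, with 490 bp at 72 h, against 550 bp at 0 h. None of the regions of this window listed at both 12 and 36 h was absent at 24 h.

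**Figure D3:**
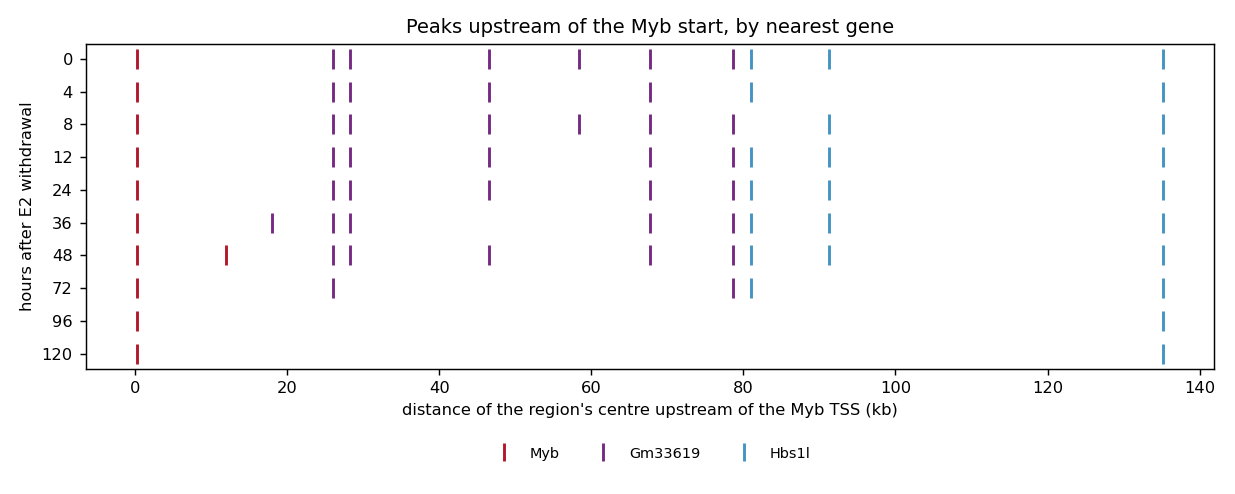
Regions upstream of the Myb TSS (x axis, distance of the region's centre in kb) present in the list of each time (y axis, hours after E2 withdrawal), coloured by the deposited nearest gene. At 96 and 120 h the marks left are the Myb promoter and the Hbs1l promoter at 135 kb.

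Myc, on chromosome 15, had few peaks of its own, 2, 3, 2, 2, 3, 3, 3, 5, 2 and 1 from 0 to 120 h. Its promoter region (chr15:61984867-61985856) was 856, 905, 876, 880, 885, 862, 888 and 979 bp wide from 0 to 72 h, and no peak was listed there at 96 or 120 h. The promoter peak was thus widest in the last list that held it. Of the promoter regions listed at every time up to 72 h, 8.2% were absent at both 96 and 120 h, and of all regions so listed 32.4% were. That class, set up after the data were seen, held 8 of the members' 70 regions: the Myc and Mycn promoters, 2 regions of Max and 4 of Mxd4 (background 8.89% of all regions).
A region at -1827 bp from the Myc TSS (chr15:61983307-61983726) behaved differently from the promoter. It was 380, 375, 375, 379, 383, 368, 372, 375, 416 and 412 bp wide from 0 to 120 h and in all 10 lists, so that at 120 h it was the only peak assigned to Myc. Late in the course 2 intergenic regions downstream of Myc appeared. The one 14466 bp from the TSS (chr15:61999623-61999992) was listed at 72 and 96 h with 370 and 364 bp, and the one at 17584 bp (chr15:62002625-62003226) at 48 and 72 h with 522 and 602 bp.

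Myc is also known to be controlled in blood cells by enhancers far downstream, beyond the noncoding gene Pvt1 and near the Gsdmc genes. From the Myc TSS to 2 Mb downstream there were 29, 29, 30, 32, 42, 41, 44, 42, 17 and 13 peaks from 0 to 120 h, in 64 regions. The count was highest at 48 h and lowest at 120 h. The stretches of this window, separated by the deposited nearest gene, did not follow 1 course. Regions assigned to the 7 genes and pseudogenes of the Gsdmc family had 14, 14, 14, 14, 17, 17, 20, 17, 3 and 2 peaks. Those assigned to Pvt1 had 4, 2, 3, 5, 8, 7, 6, 5, 2 and 1, and those assigned to H2afy3 had 5, 7, 5, 4, 4, 5, 6, 6, 4 and 4. Regions assigned to Gm20740 had 3, 3, 6, 7, 8, 7, 8, 8, 7 and 6 peaks. This last group had more peaks at 120 h than at 0 h, 6 against 3, while the Gsdmc family had 2 against 14. The whole window had 13 against 29, and the full lists held 23620 against 55261. Of all distal peaks of 0 h, 22.5% were overlapped by a peak at 120 h. The part of list length in these counts was not tested.

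The 12 regions assigned to Gsdmc itself included those at 1663 kb (chr15:63647820-63648791), 1673 kb (chr15:63657695-63658747) and 1755 kb (chr15:63740419-63741077) from the Myc TSS. These were in every list up to 72 h and in neither of the 2 last. The first was 885 bp wide at 72 h and 946 bp at 0 h, the second 990 bp and 958 bp, and the third 602 bp and 613 bp. Between the first and the second lay a region at 1667 kb (chr15:63652410-63652877) that was missing at 120 h only, with 257 bp at 96 h. The region at 1719 kb (chr15:63704229-63705432) persisted, with 632 bp at 120 h against 1020 bp at 0 h, and was missing at 48 h only. Closer to Myc, the regions assigned to Gm20740 at 1626 kb (chr15:63610839-63611539) and to H2afy3 at 416 kb (chr15:62400982-62401752) were in all 10 lists. They were 369 and 539 bp wide at 120 h, against 561 and 732 bp at 0 h.
Of the 64 regions of the window 3 were gained, against 2.38% of all regions, and 3 were lost, against 12.5%. A region still listed at 72 h cannot be called lost. Another 9 of the 64, the Myc promoter included, were listed at every time up to 72 h and absent at 96 and 120 h. Over all regions 8.89% were so. Gained means the reverse of lost: listed at 72, 96 and 120 h but not at 0, 4 and 8 h. The gained region in intron 1 of Pvt1 (chr15:62056251-62056840, 71.2 kb from the Myc TSS) was listed from 24 h on, with 504, 474, 572, 565, 453 and 465 bp. The one assigned to H2afy3 within intron 4 of a Pvt1 transcript (chr15:62251878-62252486, 267 kb) was listed from 36 h on, and the one assigned to Gm20740 (chr15:62871104-62871778, 886 kb) from 12 h on with 581 to 665 bp. The 3 lost regions lay in Pvt1 intron 1 (chr15:62079213-62079974), near Gsdmc (chr15:63697737-63698365) and in Gsdmc2 (chr15:63842449-63843412). In Pvt1 intron 1 a lost and a gained region thus stood within the same intron. Which of these regions acts on Myc is not measured by ATAC-seq.

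**Figure D4:**
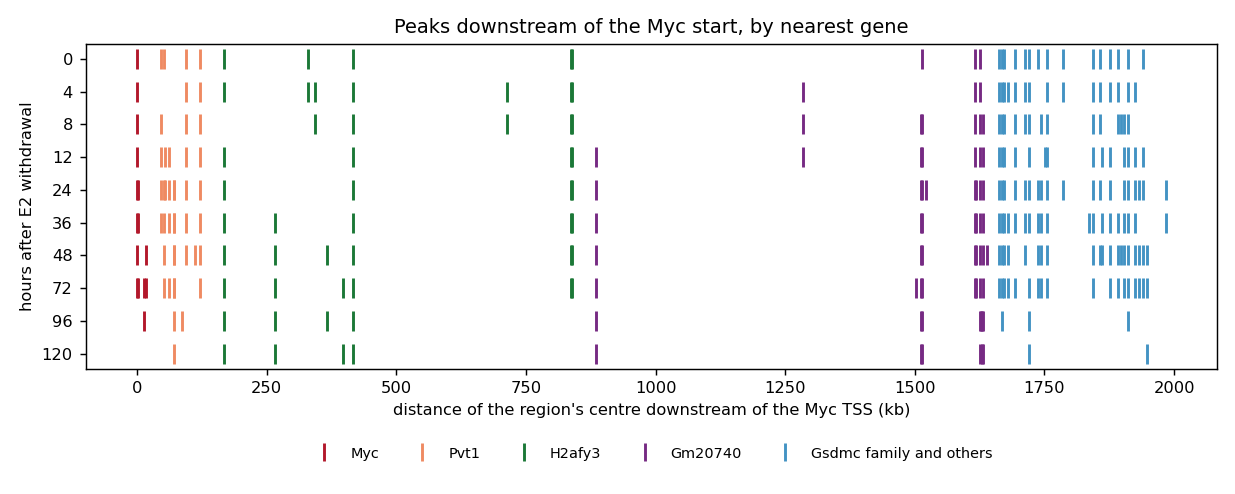
Regions downstream of the Myc TSS (x axis, distance of the region's centre in kb) present in the list of each time (y axis, hours after E2 withdrawal), coloured by the deposited nearest gene. The blue Gsdmc marks thin out at 96 and 120 h, with 2 Gsdmc family peaks at 120 h against 17 at 72 h, while the purple Gm20740 marks remain.

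Mycn, which encodes N-Myc, had 3, 3, 2, 2, 3, 2, 2, 1, 0 and 0 peaks and was the only member with no peak at 96 and 120 h. Of all genes with a peak at 0 h, 31.9% had none at 120 h. Its promoter region (chr12:12941523-12942893) was 1319, 1348, 1170, 1280, 834, 1009, 928, 500, 0 and 0 bp wide from 0 to 120 h, where 0 means not listed. The values of 24 and 48 h are sums of 2 peaks. Unlike the Myc promoter, that of Mycn was narrower before it left the lists. The 300 bases printed above lay wholly inside a peak up to 48 h, and 0 of them did from 72 h on, so the narrow 72 h peak lay beside the TSS window.
Mycl, which encodes L-Myc, had 5, 1, 3, 4, 3, 2, 1, 3, 2 and 1 peaks. Its promoter region (chr4:122995343-122996010) was listed at 0, 12, 36 and 72 h only, with 658, 660, 455 and 449 bp. Presence alternated between neighbouring lists, and of its 3 regions listed at both 0 and 8 h, 2 were absent at 4 h (background 10.8%). The steadiest Mycl region lay at -10543 bp (chr4:122985122-122985639) and was missing at 120 h only. The peak left at 120 h lay at -4640 bp in a LINE repeat (chr4:122991010-122991585) and was also listed at 0, 12, 72 and 96 h.

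**Figure D5:**
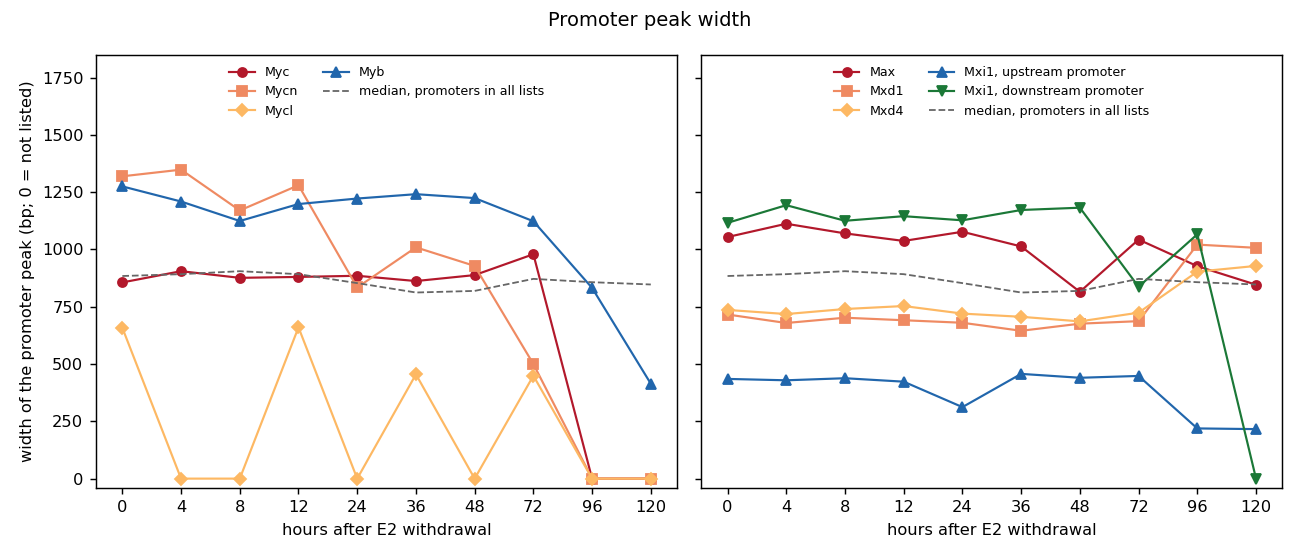
Width of the promoter peak in bp (y axis; 0 means not listed; several peaks of 1 region are summed) in the list of each time (x axis, hours after E2 withdrawal) for Myb and the Myc family (left) and for Max and its repressor partners (right). The dashed line is the median of the 5276 promoter regions in all lists; the Myb line ends at 414 bp, while Mxd1 and Mxd4 end at 1007 and 928 bp.

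Max, the shared partner of all Myc and Mxd proteins, had the most regions of the 8 genes, 17, and 11, 6, 11, 11, 10, 12, 12, 8, 5 and 6 peaks. Its promoter region (chr12:76961743-76962863) was in all lists, with 1054, 1112, 1070, 1037, 1077, 1013, 815, 1043, 927 and 846 bp. The ratio of 120 h to 0 h was 0.803, which 17.2% of the promoters in all lists reached or undercut. The printed window with its E-box lay inside the peak at every time. The deposited distances of Max use a TSS 75 bp away from the one of the RefSeq table.
Far upstream of Max, 3 neighbouring regions were constant. They lay at -90617, -98000 and -123308 bp (chr12:77052627-77053104, chr12:77059810-77060711 and chr12:77085103-77086249) and were in all 10 lists. They were 251, 452 and 697 bp wide at 120 h, against 317, 663 and 512 bp at 0 h. The 1 region among the 70 that was gained lay in intron 3 of Max (chr12:76950178-76950838). It was 453, 433, 522, 525, 638 and 632 bp wide from 24 to 120 h and absent before. Gained regions made up 2.38% of all regions, lost ones 12.5% and those in all lists 13.8%. For the members the counts of 70 were 1 gained, 4 lost and 10 (14.3%) in all lists, so the share in all lists was close to that over all regions. The 4 h list held 6 peaks of Max, fewer than its neighbours in time with 11 each. Of the 9 Max regions listed at both 0 and 8 h, 3 were absent at 4 h. Over the 8 genes this was so for 6 of 33, and over all regions listed at both times for 10.8%.

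Of the repressors, Mxd1 and Mxd4 had wider promoter peaks at the end. The Mxd1 promoter region (chr6:86668820-86669840) was 716, 679, 702, 691, 680, 645, 676, 687, 1021 and 1007 bp wide from 0 to 120 h. That of Mxd4 (chr5:34187445-34188373) was 736, 718, 740, 753, 720, 706, 686, 724, 903 and 928 bp wide. In both, the values at 96 and 120 h lay above all 8 earlier ones. The ratios of 120 h to 0 h were 1.41 for Mxd1 and 1.26 for Mxd4, at or above those of 95.7% and 91.6% of the promoters in all lists. At these promoters all 300 printed bases were inside the peak in every list.
Mxd1 had 2, 1, 1, 1, 2, 2, 2, 3, 1 and 1 peaks, and its promoter was the only one at 96 and 120 h. Mxd4 had 8, 9, 8, 6, 8, 7, 5, 6, 1 and 1, so that its distal peaks numbered 0 at 96 and 120 h, against 7 at 0 h. Of the 11 distal Mxd4 regions, 9 lay inside the neighbouring gene Zfyve28, and 4 of these were listed at every time up to 72 h only. The lost regions of Mxd4 were in exon 12 and intron 6 of Zfyve28 (chr5:34196446-34196820 and chr5:34230559-34230985). At 96 and 120 h, Mxd1 and Mxd4 thus both had a wider promoter peak than at 0 h and no distal peak in the lists. Mxd1 had only 1 distal peak at 0 h. Of all distal peaks of 0 h, 22.5% were overlapped at 120 h.

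Mxi1, the third repressor, had its highest count in the middle of the course, with 6, 6, 8, 6, 13, 12, 9, 8, 6 and 5 peaks. Counted as regions, it had 10 at 24 h against 5 at 0 h, since 3 of the regions held 2 peaks each at 24 h and 1 did at 0 h. Mxi1 has transcripts from several starts. The upstream promoter region (chr19:53310303-53310765) was in all lists, with 435, 429, 438, 423, 312, 457, 440, 448, 219 and 216 bp, and its ratio of 0.497 at 120 h was reached or undercut by 1.04% of promoters. The downstream promoter region (chr19:53329044-53330419) was 1116, 1193, 1125, 1145, 1127, 1172, 1182, 837 and 1066 bp wide from 0 to 96 h, with 2 peaks summed up to 48 h, and was absent at 120 h. The 2 promoters of Mxi1 therefore both ended narrower or absent, unlike those of Mxd1 and Mxd4. Between them, in intron 1, were 2 regions listed from 24 h through 120 h. The one at 7444 bp (chr19:53318382-53319396) was 424, 391, 575, 673, 636, 911, 893 and 1015 bp wide at 0, 12, 24, 36, 48, 72, 96 and 120 h, with 2 peaks summed at 24, 36 and 48 h, and absent at 4 and 8 h. The one at 2697 bp (chr19:53313680-53314571) was listed at 4 h and from 24 h on, with 758 bp at 120 h. Another intron 1 region next to the downstream promoter (chr19:53327872-53328632) was in all lists and was 265 bp wide at 120 h, against 609 bp at 0 h.

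Across the 8 genes, 61 of the 70 regions were distal. Of these, 11 were present at 120 h and 34 at 0 h, and 8 were present at both times. Regions in annotated repeats made up 14.3% for the members and 22.3% over all regions, and promoters 12.9% and 14.5%. Regions found in 1 list only made up 15.7% and 13.5%. At 4 h, 19 of the 34 distal peaks of 0 h (55.9%, interval 37.9 to 72.8) were overlapped, against 81.6% of all distal peaks of 0 h. The distal share of the 8 genes lay below that over all genes at every time from 4 to 48 h. It was 73.5, 70.6, 64.7, 70.6 and 55.9% at 8, 12, 24, 36 and 48 h. Over all genes it was 80.6, 80.9, 79, 72.9 and 70.5% at these times. At 72 h the 8 genes had 58.8%, against 54.3%, and at 96 h 29.4%, against 30.6%. Only the interval at 4 h left out the share over all genes. The 4 h list held 54717 peaks and the 0 h list 55261, and the part of list length or depth was not tested. Peaks of 1 gene are not independent, and 4 h was singled out after its values were seen. At 120 h the shares for distal peaks, given above, were close to each other.

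Genes with the courses most like that of Myb were found by the sum of absolute differences in peak number over the 10 lists. For Myb they were Agr3, Cacna1d, Ddx11 and Tacc1 (sum 6 each), then Rgs10 and Sec16b (7 each). Agr3, for example, had 6, 5, 7, 6, 5, 7, 6, 5, 2 and 2 peaks, without the low value of Myb at 24 h. For Myc there were 7 genes at a sum of 3, namely Dtwd2, H2-K2, Lgals7, Mthfd1, Mtr, Prss8 and Samd1.

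The wider network was read from 50 further genes in 5 lists. Of these 35 had fewer peaks at 120 h than at 0 h, 5 had more and 10 had as many, where all genes with a peak gave 65.5%, 7.17% and 27.4%. They held 71 peaks at 120 h, against 161 at 0 h, and 36 of them had a promoter peak at 120 h, against 40 at 0 h. These 36 and 40 are net counts and do not give the share kept. The promoters of Mlx, Kat2a, Bin1, Ldha, Ccnd2, Tert, Eif4e, Kit, Gfi1 and Mpo were listed at 0 h but not at 120 h. The reverse held for Mybl2, Mxd3, Ruvbl1, Ruvbl2, Sin3a and Ncl. The share of genes that kept a listed promoter was 77.2% over the whole series. Genes listed as targets of Myb had fewer peaks in 8 of 8 cases, with 17 peaks at 120 h against 47 at 0 h. All of them but Elane had at least 2 peaks at 0 h, and 88.8% of all such genes had fewer at 120 h. In this list Kit, the receptor of stem cell factor, had 2 peaks at 120 h against 11 at 0 h, and the repressor Gfi1 had 2 against 8. Bcl2, which blocks cell death, had 2 against 6, and the myeloid regulator Cebpb had 1 against 5. Targets of Myc had fewer peaks in 8 of 12 cases and more in 2 (Ncl and Nme1, by 1 peak each), with 13 peaks at 120 h against 34 at 0 h. Here Odc1, the first enzyme of polyamine synthesis, had 3 against 7, and the cyclin gene Ccnd2 had 2 against 6.
Partners of Myc and proteins that set its turnover had fewer peaks in 9 of 16 cases and more in 3 (Ruvbl1, Ruvbl2 and Sin3a), with 22 peaks at 120 h against 45 at 0 h. Fbxw7, the ubiquitin ligase subunit that marks Myc for degradation, had 13, 16, 12, 16, 17, 17, 18, 7, 3 and 2 peaks from 0 to 120 h, the highest number of the 50 genes at 0 h. Wdr5, a cofactor of Myc on chromatin, had 4 at 120 h against 8 at 0 h. The other Max network genes (Mxd3, Mnt, Mga, Mlx, Mlxip and Mlxipl) had fewer in 5 of 6 cases, with 11 peaks at 120 h against 21 at 0 h. The Myb family and its partners had fewer in 5 of 8 cases, with 8 peaks against 14, and a promoter peak in 8 of 8 at 120 h, against 7 at 0 h. Genes with a promoter peak at 120 and 0 h numbered 4 and 4 among the other Max network genes. They numbered 12 and 11 among the partners and turnover proteins of Myc, 8 and 11 among targets of Myc, and 4 and 7 among targets of Myb. The promoter counts per list are net counts too. In each of the 5 lists the peaks summed to fewer at 120 h than at 0 h, as those of the full lists did.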

How the data were processed

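ATAC-seq peak lists of 20 samples (2 per time point) were analysed. The authors deposited 1 annotated list per time, linked by the labels to both samples, so the lists could not be compared within a time. The labels' protocols say that nuclei from 1 preparation went into a pair of transposition reactions, so the samples of a time may be technical replicates. BWA, MACS2 2.0 and STAR 2.5 and the build mm9 are named in the submitters' processing notes with no role or order. Per the file headers, the peaks were annotated with HOMER's program against mm10. The deposited distances placed the TSS of Myb, Myc, Mycn and Mxd4 within 0.5 bp of RefSeq GRCm38.p6. The median gap was 74.5 bp for Max, 75 bp for Mxd1, 343 bp for Mycl and 1320 bp for Mxi1, for which 1 TSS per gene of the RefSeq table was used. A shift of reads for Tn5 cutting and any pooling of samples are not given in the sources used here.

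The deposited peak score is 0 for every peak (0 of 504887 with another value), so the lists hold no measure of strength, and positions, widths and the deposited distances in bp were used. The narrowest peak was 150 bp. Peaks of different lists that overlapped by at least 1 bp were chained into regions, whose gene and distance are those of their widest peak. Promoter means at most 1000 bp from a TSS, and the 1-based coordinates are of mm10. Early lists were 0, 4 and 8 h and late lists 72, 96 and 120 h. Intervals are exact binomial, at 95%, and cover counting error only. Host genes of introns were found by transcript accession in the RefSeq table.

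The genes and lists were chosen with earlier results of these data known. The text names the 8 genes, up to 4 genes either way per network list by the difference between 120 and 0 h, neighbours of Myc and Myb in the 2 windows, and the genes most like Myb and Myc in course (at least 5 each, with ties). It also names the network genes whose promoter was listed at only 0 h or only 120 h of these times. The sorting of regions was tested on simulated data. The tools were Python 3.11.15 with pandas 2.3.3, numpy 2.4.6, matplotlib 3.10.9 and scipy 1.17.1. Alternatives covered the overlap, list length by width, the lists called early or late, the promoter distance, the assignment to genes and the window sizes.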

Additional observations from a re-analysis of the deposited data

How the results depend on the processing

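Choosing peaks by width moved most of the values. With every list held to as many of its widest peaks as the shortest list has, the 8 genes had 2 peaks more at 120 h than at 0 h (16 against 14), where the full lists gave a difference of -28. With the widest 50% of each list the difference was -9 (8 against 17). At single genes the first setting turned the direction for Max (2 more, 6 against 4) and Mxi1 (2 more, 5 against 3). Late peaks were wider (median 617 bp at 120 h, against 474 bp at 0 h), so choosing by width does not treat the lists alike, and the part of list length alone was not tested. Peaks within 100 kb of the gene bodies, whatever their nearest gene, gave -59 (47 against 106), and 96 h in place of 120 h gave -25.

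Members with a promoter peak at 120 h numbered 5, and 3 with the widest 50%; with limits of 500 and 2000 bp there were 5 and 6. Regions lost numbered 4, 0 with lists of equal length, 1 with the widest 50%, and 13 with 0 and 4 h against 96 and 120 h. Regions gained numbered 1, and 2 with lists of equal length, with the widest 50% and with 72 and 96 h alone as late lists. Regions in all lists numbered 10, 4 with lists of equal length and 3 with the widest 50%. The share of 0 h peaks overlapped at 120 h was 29.5%, and 50% (of 14 peaks) with lists of equal length. Requiring an overlap of 50% of the narrower peak gave 5 lost, 1 gained and 10 in all lists. The Myc window of 2 Mb held 16 peaks fewer at 120 h (-16); with 1 Mb the difference was -4 (6 against 10) and with 3 Mb -38 (28 against 66). The Myb window gave -8 with 200 kb and with 100 kb, and -11 with 300 kb. The Myb promoter width ratio was 0.653 with 96 h, an alternative chosen after seeing the data. No paired analysis was possible because each time has 1 list for both replicates, and leaving out a replicate was not run for the same reason. Without read counts the depth behind any peak is unknown.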
